A study of Homo sapiens with 38 samples.

Results

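The expression of 10 genes of the integrated stress response, the ATF4-CHOP program, was followed in A549 cells exposed to fumed silica nanoparticles (NPs). The genes were ATF4, DDIT3 (which encodes CHOP), ATF3, ATF5, PPP1R15A, TRIB3, CHAC1, DDIT4, SESN2 and ASNS. Their probes were found by transcript accession: 14 of the 34127 probes on the array belonged to these 10 genes, out of 19720 genes that could be named. Each gene was followed by its brightest probe over all arrays, and the 4 other probes, 3 for ATF3 and 1 for CHAC1, are described apart. In the integrated stress response, kinases that sense amino acid shortage, misfolded protein in the endoplasmic reticulum (ER), lack of heme or viral RNA phosphorylate the translation factor eIF2, which lowers protein synthesis at large while the mRNA of ATF4 is translated more. ATF4 is a transcription factor that raises amino acid supply genes and further factors such as CHOP, ATF3 and ATF5. Some of its targets act back on the pathway, among them PPP1R15A (GADD34), which directs a phosphatase to eIF2, and TRIB3, a pseudokinase that restrains ATF4 and CHOP.

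A549 is a human alveolar epithelial cell line, and AEROSIL 200 is a hydrophilic fumed silica. The cells were exposed in serum-free medium, which the control cells also received, and total RNA was labeled with Cy3 and hybridized to 38 single-color Agilent arrays. The first set of arrays held cells at 24 h without NPs (4 arrays) and with 0.1 μg/cm2 (4) or 1.0 μg/cm2 silica (4). The second set held cells at 24 h without NPs (4) and with 1.5 μg/cm2 (4). The third set held cells without NPs at 24 h (3) and 72 h (3), with 3.0 μg/cm2 at 24 h (3) and 72 h (3), and with 6.0 μg/cm2 at 24 h (3) and 72 h (3). For the exposed cells at 72 h, 1 label gives 24 h and another 72 h, and the latter was used. The labels give each array of a group its own biological and technical replicate number, the same for both, and name no culture, so p-values measure the spread between arrays, which may be technical.

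All values are log2 signals relative to the 75th percentile of the same array, and levels of different genes are not comparable. The 14 probes were well above background on all 38 arrays. The 75th percentile lay between 724 and 3214 intensity units, and 54.35 to 73.51% of an array's probes exceeded background clearly. The epithelial genes KRT7, KRT8, KRT18, KRT19, EPCAM and CDH1 (6 of 6) were well above background on all arrays. Of 8 alveolar type II genes 3 were (SFTPC, ABCA3 and NAPSA). SFTPD was on 37 of 38 arrays, LAMP3 on 33, SFTPA1 on 11, SFTPB on 2 and SLC34A2 on 0. Of 4 leukocyte genes PTPRC, CD14 and CD68 were well above background on all arrays and CD3E on 7. COL1A1 was the 1 of 4 fibroblast genes on all arrays, with PDGFRA on 6, COL3A1 on 2 and COL1A2 on 0. Of 4 endothelial genes 0 were on all arrays, with CDH5 on 37, VWF on 27, PECAM1 on 3 and TEK on 0. In the first set, replicates 1 and 2, and likewise 3 and 4, differed by a median of 0.044 to 0.062, close to the 0.045 to 0.061 between spots of the same probe on 1 array, while other replicates of a group differed by 0.16 to 0.233. Although the labels number them as separate biological replicates, such arrays may not be independent, and the lower doses were therefore tested both over 4 arrays per group and over the means of these pairs, 2 per group. In the second set arrays were as alike in both pairs of exposed arrays and in control replicates 3 and 4 (0.053, 0.058 and 0.087, spots 0.052 to 0.099), but not in control replicates 1 and 2 (0.176). All exposed arrays at 72 h were scanned on another day than the 72 h control arrays and lay on other slides, so at 72 h exposure and scan day cannot be told apart.

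ATF4 pairs with C/EBP factors on the C/EBP-ATF response element, the ATF and CREB factors bind the cAMP response element, and ATF6 binds the ER stress element. The letters TGATGNAA for the first, TGACGTCA for the second and those of the ER stress element were searched on both strands in the RefSeq promoter windows of all 10 genes (GRCh38.p14, 250 bases before to 50 bases after each start). TGATGNAA was found for 3 of the 10 genes (CHAC1, ASNS and ATF3) against 4.46% of 27305 genes, TGACGTCA for 1 (PPP1R15A) against 2.25%, and the ER stress element for 0 against 0.0916%. Over all 35116 windows the shares were 3.62%, 1.85% and 0.0769%. A gene counted as matched if any of its windows held the letters. ATF3 and ASNS each had a further window without a match, which is not shown. The 250 bases before the start of the genes with a match are shown 5′ to 3′, because 3 of these genes (CHAC1, ATF3 and PPP1R15A) were among the strongest risers at 24 h, with the matched letters in capitals. The match begins at position −209 in CHAC1, −68 in ASNS, −191 in ATF3 and −58 in PPP1R15A, counted from the start. In CHAC1 the letters TGATGNAA lie on the opposite strand, so the strand shown reads TTGCATCA.
CHAC1 promoter (chr15:40953221-40953470, plus strand): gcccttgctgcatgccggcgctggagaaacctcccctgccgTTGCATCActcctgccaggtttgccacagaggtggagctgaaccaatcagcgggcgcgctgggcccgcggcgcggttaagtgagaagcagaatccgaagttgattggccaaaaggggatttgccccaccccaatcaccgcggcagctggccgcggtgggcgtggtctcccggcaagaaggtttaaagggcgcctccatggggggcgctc
ASNS promoter (chr7:97872409-97872658, minus strand): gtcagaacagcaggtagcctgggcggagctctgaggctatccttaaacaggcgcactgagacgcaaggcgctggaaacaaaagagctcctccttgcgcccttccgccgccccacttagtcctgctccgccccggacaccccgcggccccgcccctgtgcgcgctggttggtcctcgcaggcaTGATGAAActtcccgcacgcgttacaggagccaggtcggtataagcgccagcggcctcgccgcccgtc
ATF3 promoter (chr1:212565157-212565406, plus strand): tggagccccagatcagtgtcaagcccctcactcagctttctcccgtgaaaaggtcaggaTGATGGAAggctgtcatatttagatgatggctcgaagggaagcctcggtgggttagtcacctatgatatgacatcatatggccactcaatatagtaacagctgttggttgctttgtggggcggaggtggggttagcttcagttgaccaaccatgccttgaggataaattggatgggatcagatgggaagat
PPP1R15A promoter (chr19:48872171-48872420, plus strand): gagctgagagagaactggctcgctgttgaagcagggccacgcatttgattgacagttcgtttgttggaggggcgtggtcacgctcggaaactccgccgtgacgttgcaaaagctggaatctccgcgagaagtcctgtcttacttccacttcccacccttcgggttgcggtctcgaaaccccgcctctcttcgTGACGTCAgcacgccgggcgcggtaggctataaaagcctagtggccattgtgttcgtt
A match describes these letters and is not a measured binding site, and genes without a match in this window, such as DDIT3 and TRIB3, also rose.

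The first question was which of the 10 genes responded at the higher doses after 24 h. At 3.0 μg/cm2, 6 of the 10 genes were modulated (limma, Benjamini-Hochberg adjusted p below 0.05 over all probes and a change of at least 1.5-fold), all of them upward: CHAC1, DDIT3, ATF3, TRIB3, DDIT4 and PPP1R15A. Of all 22096 probes tested, 2.87% were modulated, 1.5% higher and 1.37% lower. With the methods' t-test or without a filter on dim probes 4 of the 10 genes were called at this dose (not ATF3 and DDIT4), and with normexp background correction 4 (not DDIT4 and PPP1R15A). At 6.0 μg/cm2, 6 were again modulated upward, DDIT3, ATF3, CHAC1, PPP1R15A, TRIB3 and SESN2, where 9.29% of 22174 probes were modulated, 3.94% higher and 5.35% lower. The median difference of the 10 genes was 0.61 at 3.0 μg/cm2 and 0.77 at 6.0 μg/cm2, against 0.00 and −0.03 over all probes. At each of these doses 9 of the 10 genes had exposed arrays entirely above the control arrays, as had 16.2% of all probes at 3.0 μg/cm2 and 21.5% at 6.0 μg/cm2. The 2 comparisons share their 3 control arrays. More RNA per cell and more cells with the RNA cannot be told apart in these samples.

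**Figure D1:**
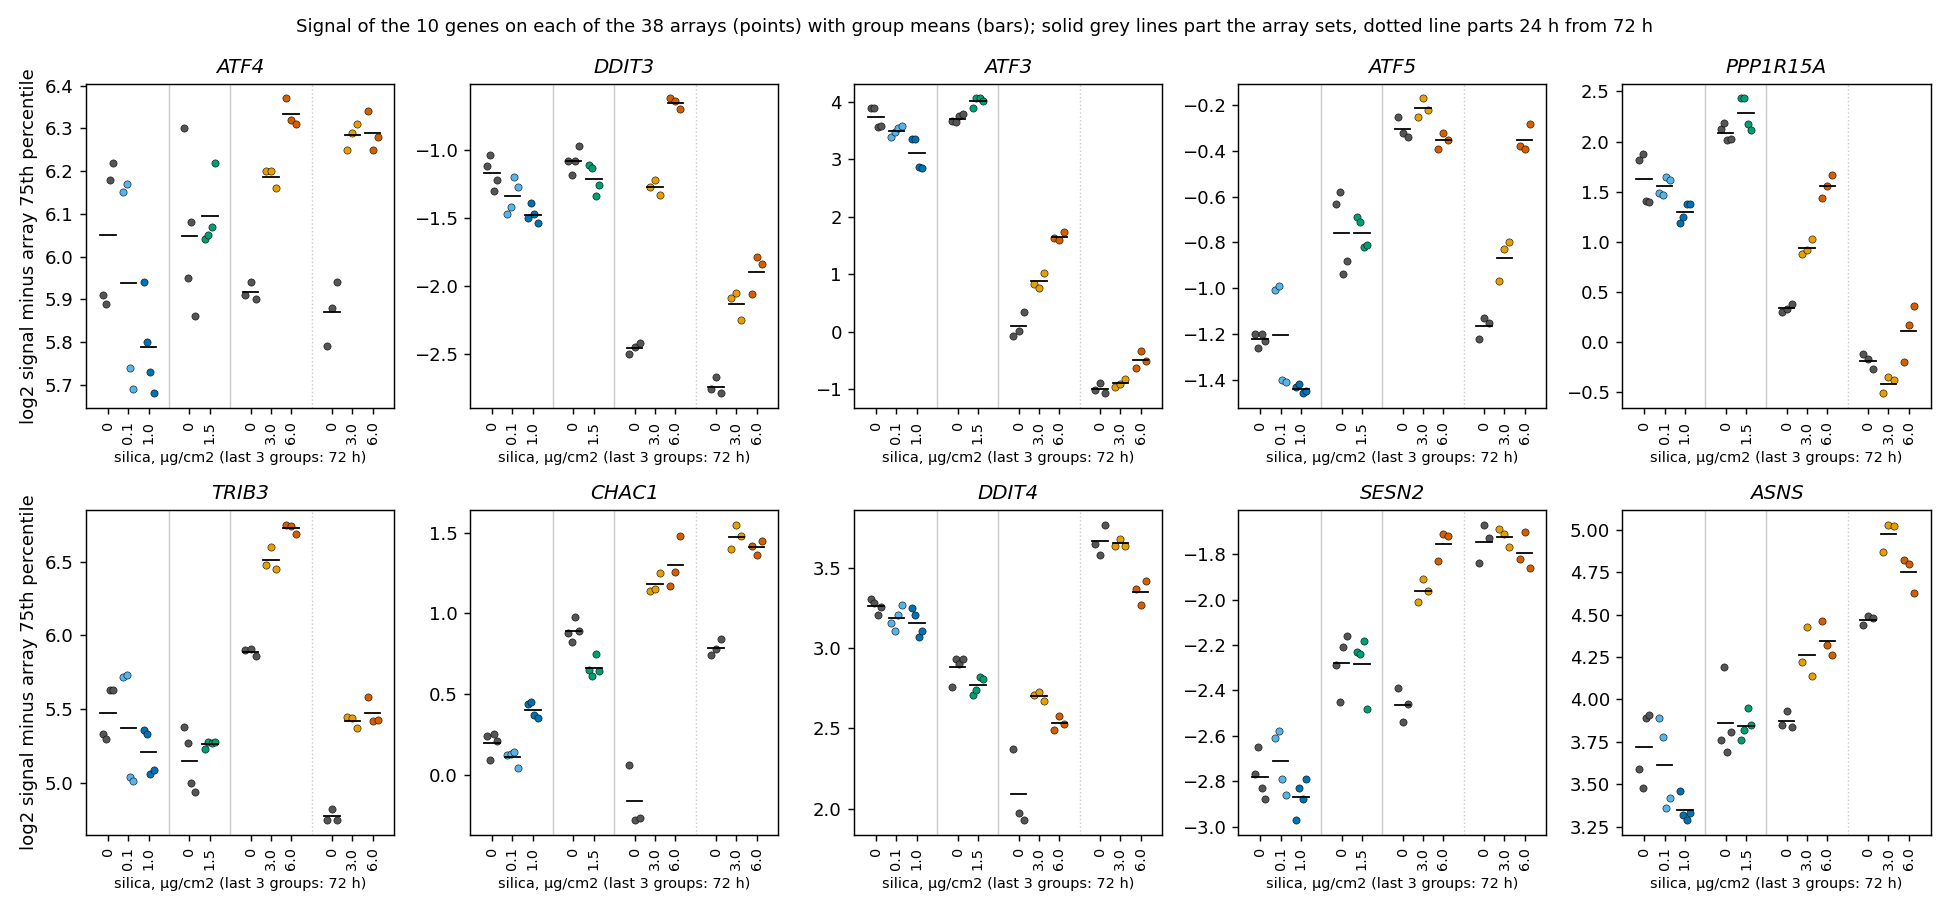
Log2 signal minus the 75th percentile of the array (vertical axes, 1 panel per gene) on each of the 38 arrays by silica dose, with points for arrays, bars for group means, solid lines between the 3 array sets and a dotted line before the 72 h groups. DDIT3 climbs from −2.46 to −0.66 between controls and 6.0 μg/cm2 at 24 h, and the controls of ATF3 differ between sets, from 3.74 to 0.10.

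ATF4 mRNA itself changed little. The control arrays at 24 h read 5.91, 5.94 and 5.90, the arrays at 3.0 μg/cm2 6.20, 6.20 and 6.16, and those at 6.0 μg/cm2 6.37, 6.32 and 6.31, with no overlap between control and exposed arrays. The increase at 3.0 μg/cm2 (0.27, SE 0.04, adjusted p = 0.0134) and at 6.0 μg/cm2 (0.41, SE 0.05, adjusted p = 0.00146) passed the adjusted threshold but corresponded to 1.21-fold and 1.33-fold, below the required fold change. ATF4 activity is set largely by translation, which these arrays do not measure.

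DDIT3 encodes CHOP, a C/EBP-related factor that is linked to cell death under prolonged stress, and it had the largest difference of the 10 genes at 6.0 μg/cm2. Its controls at 24 h were −2.50, −2.45 and −2.42, rising to −1.27, −1.22 and −1.33 at 3.0 μg/cm2 and to −0.62, −0.64 and −0.70 at 6.0 μg/cm2. The 3 groups lay apart from each other, and the spread within a group was small against the distances between them. The differences were 1.19 (SE 0.05, 2.28-fold, adjusted p = 0.000216) and 1.80 (SE 0.05, 3.49-fold, adjusted p = 1.96e-05).

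ATF3, a stress-induced factor of the same bZIP family, stepped up with dose as well. The control arrays read −0.07, 0.02 and 0.35, those at 3.0 μg/cm2 0.84, 0.77 and 1.02, and those at 6.0 μg/cm2 1.64, 1.60 and 1.73. All exposed arrays lay above the controls, of which replicate 3 was the highest. The differences were 0.78 (SE 0.12, 1.71-fold, adjusted p = 0.0117) and 1.56 (SE 0.11, 2.94-fold, adjusted p = 0.000235), but the call at 3.0 μg/cm2 was lost without control replicate 2 (adjusted p = 0.0506), with the methods' t-test (0.0623) and without a filter on dim probes (0.0529). ATF5, a related factor that like ATF4 is controlled at translation, stayed at −0.25, −0.32 and −0.34 in controls against −0.25, −0.17 and −0.22 at 3.0 μg/cm2 and −0.39, −0.32 and −0.35 at 6.0 μg/cm2. These groups overlapped, and neither difference passed the test (0.08 and −0.05, 95% confidence intervals −0.04 to 0.21 and −0.18 to 0.08).

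The genes that act back on the pathway also rose. PPP1R15A, whose product GADD34 helps to remove the phosphate from eIF2, was at 0.30, 0.33 and 0.38 in controls, 0.88, 0.92 and 1.03 at 3.0 μg/cm2 and 1.44, 1.56 and 1.67 at 6.0 μg/cm2. The 3 groups did not overlap. The differences were 0.61 (SE 0.06, 1.52-fold, adjusted p = 0.00226) and 1.22 (SE 0.07, 2.33-fold, adjusted p = 0.000118), the first just past the 1.5-fold limit and below it without the exposed replicate 3 (0.56) or with normexp (0.58). TRIB3 moved from 5.90, 5.91 and 5.86 in controls to 6.48, 6.60 and 6.45 at 3.0 μg/cm2 and 6.75, 6.74 and 6.69 at 6.0 μg/cm2. Again the groups were separate, with differences of 0.62 (SE 0.06, 1.54-fold, adjusted p = 0.00212) and 0.84 (SE 0.05, 1.79-fold, adjusted p = 0.000118), and the first fell below 1.5-fold without the exposed replicate 2.

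CHAC1, which degrades glutathione, was the most raised of the 10 genes at 3.0 μg/cm2. Its controls were 0.06, −0.28 and −0.27, and the arrays at 3.0 μg/cm2 read 1.14, 1.15 and 1.25 and those at 6.0 μg/cm2 1.17, 1.26 and 1.48. The exposed arrays of both doses overlapped each other and lay above all controls. The differences were 1.34 (SE 0.10, 2.54-fold, adjusted p = 0.00106) and 1.46 (SE 0.12, 2.76-fold, adjusted p = 0.000408).

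The 3 remaining genes act in growth control and amino acid supply. DDIT4 (REDD1) and SESN2 (sestrin 2) restrain the growth kinase complex mTORC1, and ASNS makes asparagine. DDIT4 read 2.37, 1.97 and 1.93 in controls, 2.71, 2.73 and 2.67 at 3.0 μg/cm2 and 2.49, 2.58 and 2.53 at 6.0 μg/cm2. Control replicate 1 stood above the other two, and the difference was 0.61 (SE 0.12, adjusted p = 0.0242) at the lower and 0.45 (SE 0.12, adjusted p = 0.0315, 1.36-fold) at the higher dose. The call of DDIT4 at 3.0 μg/cm2 was lost in 8 of 14 alternatives, namely 5 of the 6 fits without 1 array, the methods' t-test (adjusted p = 0.0916), no filter on dim probes (adjusted p = 0.0882) and normexp (0.58, short of 1.5-fold), and at 6.0 μg/cm2 DDIT4 was called without control replicate 1 (0.59).

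SESN2 read −2.39, −2.54 and −2.46 in controls, −2.01, −1.91 and −1.96 at 3.0 μg/cm2 and −1.83, −1.71 and −1.72 at 6.0 μg/cm2, without overlap. Its difference of 0.50 at 3.0 μg/cm2 (SE 0.06, adjusted p = 0.00437) was 1.42-fold, and that of 0.71 at 6.0 μg/cm2 (SE 0.07, adjusted p = 0.000571) was 1.64-fold. ASNS rose from 3.85, 3.93 and 3.84 to 4.22, 4.43 and 4.14 and to 4.46, 4.32 and 4.26, differences of 0.39 (SE 0.08, adjusted p = 0.0305) and 0.47 (SE 0.07, adjusted p = 0.00318) that stayed below 1.5-fold. Control and exposed arrays of the same replicate number shared a slide at 24 h. Within slides, all 3 differences were above 0 for 9 of the 10 genes at both doses, ATF5 being the exception. These differences come from the same arrays, and their share over all probes was not computed. With the replicate number as a block the counts were also 6 and 6.

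**Figure D2:**
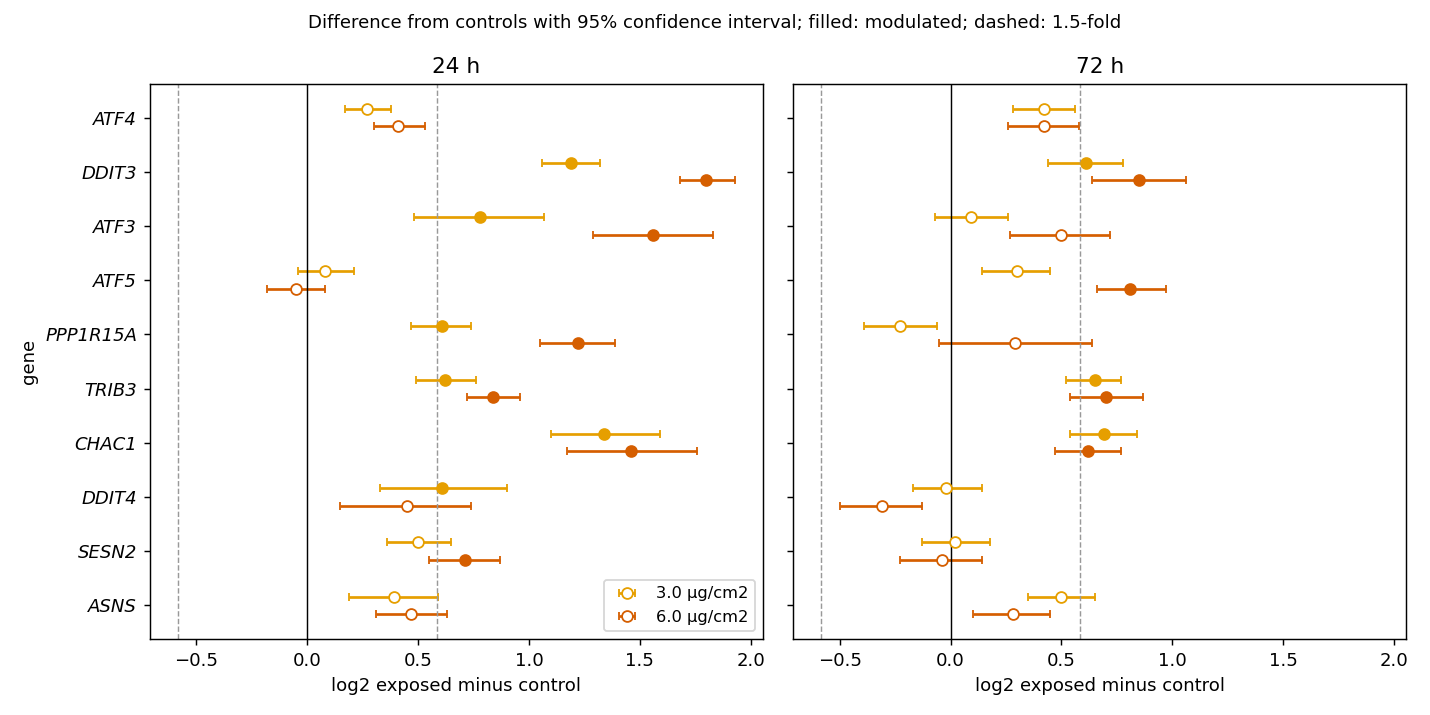
Log2 difference of exposed minus control arrays (horizontal axis) with its 95% confidence interval for each gene at 3.0 μg/cm2 (yellow) and 6.0 μg/cm2 (orange), at 24 h (left) and 72 h (right), with filled points for modulated genes and dashed lines at 1.5-fold. At 24 h DDIT3 is highest, at 1.80, and ATF5 lies at 0.08 and −0.05, whereas at 72 h ATF5 reaches 0.81 at the higher dose.

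The step from 3.0 to 6.0 μg/cm2 was tested on the exposed arrays alone. At 24 h, 3 of the 10 genes were higher at the higher dose (1.64% of 22140 probes differed and 0.696% were higher): ATF3 by 0.78 (SE 0.08, adjusted p = 0.00558), DDIT3 by 0.62 (SE 0.05, adjusted p = 0.00397) and PPP1R15A by 0.61 (SE 0.08, adjusted p = 0.00905). CHAC1 did not pass, with a difference of 0.12 and a 95% confidence interval from −0.09 to 0.33, and DDIT4 was lower by a value that did not pass either (−0.17, adjusted p = 0.0842). None of the 3 calls held with normexp background correction (adjusted p = 0.0797 for ATF3, 0.0723 for DDIT3 and 0.0800 for PPP1R15A). That of DDIT3 was also lost on the deposited median signals (0.57), and that of PPP1R15A without a filter on dim probes (adjusted p = 0.0525), without replicate 1 at 3.0 μg/cm2 or without replicate 3 at 6.0 μg/cm2. At 72 h, 0 of the 10 genes differed between the doses by limma (4.85% of 21609 probes did), 6 of the 10 genes and 32.8% of all probes passed an unadjusted p below 0.05, and the methods' t-test called 0. There ATF5 (0.52, SE 0.07, adjusted p = 0.00769), ATF3 (0.40, SE 0.09, adjusted p = 0.0311) and DDIT4 (−0.30, SE 0.06, adjusted p = 0.0265) passed the adjusted threshold below 1.5-fold, and PPP1R15A (0.52, adjusted p = 0.0618) passed both without the exposed replicate 1 at 6.0 μg/cm2.

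The second question was whether the response was the same after 72 h. At 3.0 μg/cm2, 3 of the 10 genes were modulated upward at 72 h (CHAC1, TRIB3 and DDIT3), and 5.92% of 21957 probes were modulated, 2.08% higher and 3.84% lower. At 6.0 μg/cm2, 4 were modulated upward (DDIT3, ATF5, TRIB3 and CHAC1), and 17.1% of 21859 probes were modulated, 6.51% higher and 10.6% lower. The median difference of the 10 genes was 0.36 and 0.46, against 0.03 over all probes at both doses. These comparisons shared their 3 control arrays.

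DDIT3 remained above its controls at 72 h. The control arrays read −2.76, −2.67 and −2.79, those at 3.0 μg/cm2 −2.09, −2.05 and −2.25 and those at 6.0 μg/cm2 −2.06, −1.79 and −1.84. Both exposed groups were above the controls but overlapped each other, with differences of 0.61 (SE 0.07, adjusted p = 0.0037) and 0.85 (SE 0.09, adjusted p = 0.000569). The call at 3.0 μg/cm2 was lost without the exposed replicate 2 (0.57), with normexp background correction (0.43) and on the deposited median signals (0.38), all short of 1.5-fold.

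TRIB3 and CHAC1 showed the same separation at 72 h. TRIB3 was at 4.75, 4.82 and 4.75 in controls, 5.45, 5.44 and 5.37 at 3.0 μg/cm2 and 5.58, 5.42 and 5.43 at 6.0 μg/cm2, differences of 0.65 (SE 0.05, adjusted p = 0.0013) and 0.70 (SE 0.07, adjusted p = 0.00048). CHAC1 was at 0.74, 0.78 and 0.84 in controls, 1.40, 1.55 and 1.48 at 3.0 μg/cm2 and 1.42, 1.36 and 1.45 at 6.0 μg/cm2, differences of 0.69 (SE 0.06, adjusted p = 0.00177) and 0.62 (SE 0.06, adjusted p = 0.000507). For both genes the doses overlapped and the exposed arrays lay above all controls.

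ATF5 was modulated at 72 h and not at 24 h. Its 72 h controls read −1.22, −1.13 and −1.15, the arrays at 3.0 μg/cm2 −0.97, −0.83 and −0.80, and those at 6.0 μg/cm2 −0.38, −0.39 and −0.28. The 3 groups did not overlap, with differences of 0.30 (SE 0.06, adjusted p = 0.0216, 1.23-fold) and 0.81 (SE 0.06, adjusted p = 0.000191, 1.76-fold). ATF4 lay 0.42 above controls at 3.0 μg/cm2 (adjusted p = 0.00643) and 0.42 at 6.0 μg/cm2 (adjusted p = 0.00311), with controls at 5.79, 5.88 and 5.94 and exposed arrays between 6.25 and 6.34.

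ATF3, PPP1R15A, SESN2 and DDIT4 were closer to their controls at 72 h than at 24 h. ATF3 differed by 0.09 (SE 0.07, adjusted p = 0.336) and 0.50 (SE 0.09, adjusted p = 0.00602, 1.41-fold), and PPP1R15A by −0.23 (adjusted p = 0.0537) and 0.29 (adjusted p = 0.138). The exposed arrays of PPP1R15A at the higher dose were wide apart, at −0.20, 0.17 and 0.36 against −0.12, −0.17 and −0.27 in controls. SESN2 differed by 0.02 and −0.04 (95% confidence intervals −0.13 to 0.18 and −0.23 to 0.14), and DDIT4 by −0.02 and −0.31 (the latter with adjusted p = 0.0176). ASNS differed by 0.50 at 3.0 μg/cm2, against 0.39 at 24 h, and by 0.28 at 6.0 μg/cm2, against 0.47 (adjusted p = 0.00465 and 0.0226 at 72 h). None of these reached 1.5-fold at 72 h, nor did ATF4.

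The difference between the times was tested itself, as the difference at 72 h minus the difference at 24 h in 1 fit of the 4 groups. At 3.0 μg/cm2, 4 of the 10 genes had a smaller difference at 72 h, where 5.31% of 22620 probes differed and 3.25% were lower. They were PPP1R15A (−0.83, SE 0.09, adjusted p = 0.000644), ATF3 (−0.68, SE 0.15, adjusted p = 0.0127), CHAC1 (−0.65, SE 0.12, adjusted p = 0.00701) and DDIT4 (−0.63, SE 0.15, adjusted p = 0.0157). DDIT3 fell just short of 1.5-fold (−0.58, SE 0.09, adjusted p = 0.00264) and was called in 8 of 21 alternatives, among them 6 of the 12 fits without 1 array. The call of DDIT4 was lost without control replicate 2 or 3 at 24 h, without control replicate 3 at 72 h and on the deposited median signals (−0.58), where CHAC1 also fell short (−0.58). The call of ATF3 held for the probe shown alone: its other probes gave −0.24, −0.22 and 0.57 (adjusted p = 0.724, 0.499 and 0.187).

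At 6.0 μg/cm2, 6 genes had a smaller difference at 72 h and 1 a larger, where 17.1% of 22606 probes differed, 9.2% lower and 7.93% higher. The 6 were ATF3 (−1.06, SE 0.15, adjusted p = 0.000511), DDIT3 (−0.96, SE 0.10, adjusted p = 8.29e-05), PPP1R15A (−0.93, SE 0.17, adjusted p = 0.00206), CHAC1 (−0.85, SE 0.14, adjusted p = 0.00129), DDIT4 (−0.76, SE 0.15, adjusted p = 0.00328) and SESN2 (−0.75, SE 0.10, adjusted p = 0.000281). The larger one was ATF5 (0.87, SE 0.07, adjusted p = 2.43e-05). For TRIB3 the difference between the times was 0.02 and −0.13 at 3.0 and 6.0 μg/cm2 (95% confidence intervals −0.14 to 0.18 and −0.30 to 0.04), for ATF4 0.14 and 0.01 (0.00 to 0.29 and −0.16 to 0.17), and for ASNS 0.11 and −0.19. In all 12 fits without 1 array at 6.0 μg/cm2, 7 of the 10 genes passed.

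The levels behind these differences were not alike. The control cells themselves differed between the times: 7 of the 10 genes were called between 72 h and 24 h without NPs, 4 higher and 3 lower, where 20.1% of 22133 probes differed, 13.4% higher and 6.71% lower. DDIT4 (1.58, SE 0.13), CHAC1 (0.95, SE 0.10), SESN2 (0.71, SE 0.07) and ASNS (0.60, SE 0.05) were higher in controls at 72 h, and TRIB3 (−1.11, SE 0.05), ATF3 (−1.09, SE 0.12) and ATF5 (−0.86, SE 0.06) were lower, with adjusted p between 4.88e-05 and 0.000552. The call of ASNS was lost without control replicate 3 at 24 h. The fall of ATF3 was not shared by all its probes. The others gave −1.14 (adjusted p = 0.0044), −0.21 (adjusted p = 0.143) and 0.38 (adjusted p = 0.0134). Because these control arrays also enter the test of the times, both tests share them.

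In exposed cells at 6.0 μg/cm2 the mean of CHAC1 was 1.30 at 24 h and 1.41 at 72 h, that of SESN2 −1.75 and −1.79, and that of ATF5 −0.35 and −0.35, so that for these 3 genes the exposed arrays of both times overlapped and the controls lay apart. For DDIT3 the controls were at −2.46 and −2.74 and the exposed mean went from −0.66 to −1.89. For the probe shown of ATF3 the exposed mean went from 1.66 to −0.49, below the 24 h controls at 0.10. For PPP1R15A it went from 1.56 to 0.11.

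Across the 6 groups of the third set, the order of DDIT3 was 6.0 μg/cm2 at 24 h, 3.0 μg/cm2 at 24 h, 6.0 μg/cm2 at 72 h, 3.0 μg/cm2 at 72 h, 24 h controls and 72 h controls, and the only neighbors whose arrays overlapped were the 2 doses at 72 h. By the probe shown, ATF3 was ordered from 6.0 and 3.0 μg/cm2 at 24 h to the 24 h controls. Below these came 6.0 and 3.0 μg/cm2 at 72 h and the 72 h controls, the last 2 overlapping. ASNS was highest at 3.0 μg/cm2 at 72 h (mean 4.97), then 6.0 μg/cm2 at 72 h (4.75) and the 72 h controls (4.47), and lowest in the 24 h controls (3.87). DDIT4 was highest in the 72 h controls (3.67), overlapping with 3.0 μg/cm2 at 72 h (3.65).

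**Figure D3:**
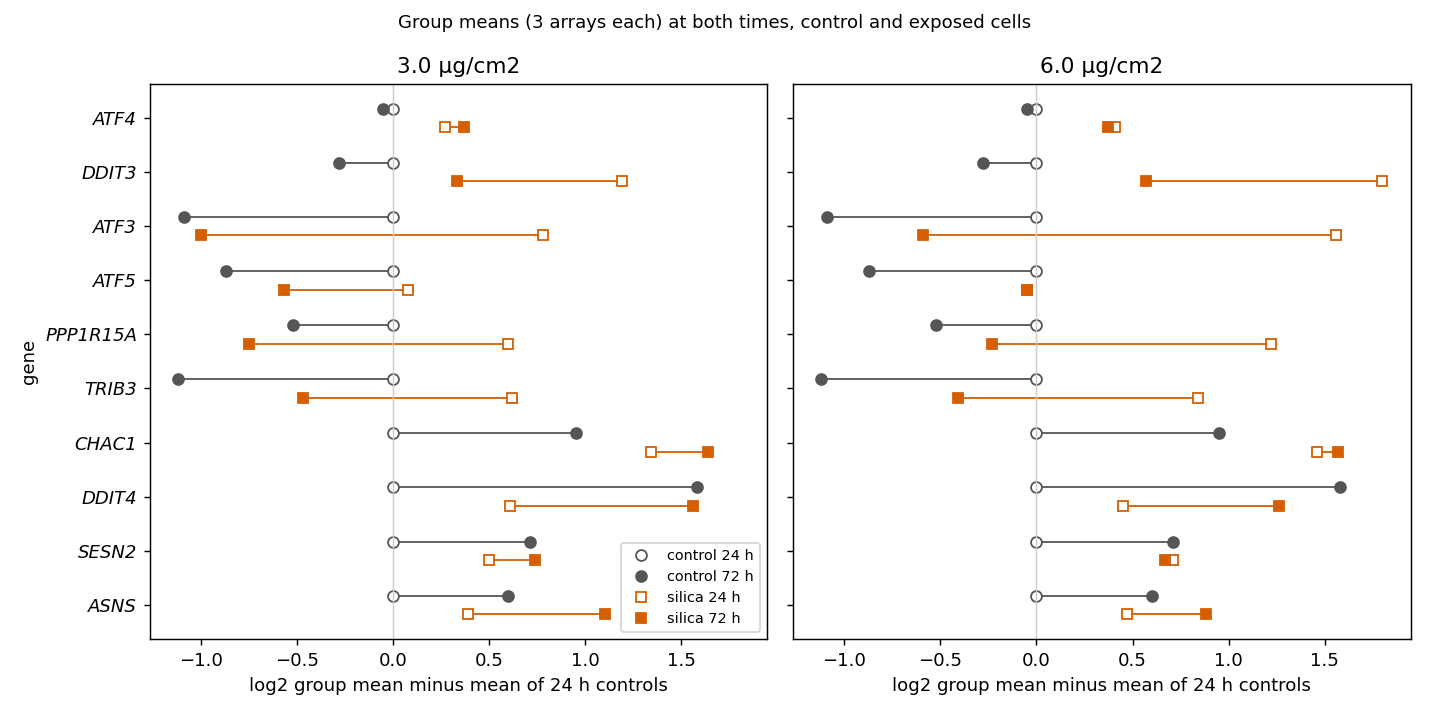
Mean log2 signal of each gene in controls (circles) and exposed cells (squares) at 24 h (open) and 72 h (filled) relative to the 24 h controls (horizontal axis), at 3.0 μg/cm2 (left) and 6.0 μg/cm2 (right), with 3 arrays per mean. The gap between square and circle narrows from 24 h to 72 h for DDIT3, from 1.80 to 0.85 at the higher dose, and opens for ATF5, from −0.05 to 0.81, where the control mean moved by −0.86.

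At the lower doses none of the 10 genes was modulated. At 0.1 μg/cm2 the differences lay between −0.24 (ATF3) and 0.07 (SESN2), with a median of −0.09 against 0.00 over all probes, and 0% of 21698 probes were modulated (limma; at an unadjusted p below 0.05, 1 of the 10 genes and 9.46% of all probes over 4 arrays per group, and 0 and 1.65% over the pair means). The methods' t-test also called 0 of the 10 genes. At 1.0 μg/cm2, 9 of the 10 genes were lower and CHAC1 was higher, with a median of −0.26 against −0.01, and 0.00949% of 21081 probes were modulated. ATF3 read 3.90, 3.90, 3.57 and 3.58 in controls and 3.35, 3.35, 2.87 and 2.85 at 1.0 μg/cm2, a difference of −0.63 that did not pass over 4 arrays per group (SE 0.15, adjusted p = 0.126) or over the pair means (SE 0.22, adjusted p = 0.999). It passed with replicates 1 and 2 against 3 and 4 as a block (SE 0.06, adjusted p = 0.0345). That fit also takes the arrays of a pair as independent. At an unadjusted p below 0.05, 8 of the 10 genes and 17.6% of all probes passed over 4 arrays per group, which takes the arrays of a pair as independent, but 1 gene and 2.75% over the pair means. The methods' t-test again called 0 after adjustment. At 1.0 μg/cm2 the exposed arrays of ATF3, ASNS, ATF5, DDIT3 and PPP1R15A lay entirely below the controls and those of CHAC1 above, 6 of 10 genes against 12.8% of all probes, with arrays of a pair not independent.

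At 1.5 μg/cm2, where 2.36% of 21021 probes were modulated, the median of the 10 genes was 0.00 against 0.01 over all probes. ATF3 read 3.66, 3.65, 3.75 and 3.78 in controls and 3.90, 4.06, 4.06 and 4.01 in exposed cells, without overlap. The difference of 0.30 did not pass (SE 0.08, adjusted p = 0.082; over pair means 0.92), and it was 0.33 and 0.27 within the 2 scan days of that set. The difference of CHAC1 was −0.23 (SE 0.07, adjusted p = 0.164), also without overlap, and those of the other 8 genes lay between −0.13 (DDIT3) and 0.20 (PPP1R15A). At an unadjusted p below 0.05, 2 of the 10 genes and 16.6% of all probes passed over 4 arrays per group, against 0 and 6.9% over the pair means, where 0% of all probes were modulated, and the methods' t-test called 0 of the 10 genes after adjustment.

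The control cells of the 3 sets, all at 24 h without NPs, differed in the level of several of these genes. ATF3 was at a mean of 3.74 in the first and 3.71 in the second set but at 0.10 in the third, a span of 3.64 that 0.028% of 17834 probes matched or exceeded, where the median span was 0.39 and the 95th percentile 1.12. PPP1R15A (1.63, 2.09 and 0.34), DDIT3 (−1.17, −1.08 and −2.46) and DDIT4 (3.27, 2.88 and 2.09) were also lowest in the third set, whereas ATF5 (−1.22, −0.76 and −0.30) and TRIB3 (5.47, 5.15 and 5.89) were highest there. CHAC1 (0.20, 0.89 and −0.16) was lowest in the third set and SESN2 (−2.78, −2.28 and −2.46) in the first. ATF4 (6.05, 6.05 and 5.92) and ASNS (3.72, 3.86 and 3.87) differed by no more than 0.16. The sets lay on different slides and were scanned on different days, so the level of a gene was not tested across sets. What differed between the control cultures was not tested. As untested numbers, the mean of DDIT3 at 24 h lay below the control means of the first and second sets at 3.0 μg/cm2 (−1.27). At 6.0 μg/cm2 (−0.66) it lay above them. The mean of ATF3 at 6.0 μg/cm2 at 24 h (1.66) was below the control means of these 2 sets.

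The other probes of ATF3 followed the probe shown in part. The probes A_24_P33895 and A_33_P3214105 rose at 3.0 μg/cm2 by 0.85 and 0.64 and at 6.0 μg/cm2 by 1.67 and 1.21 at 24 h, all modulated. The fourth, A_33_P3214096, gave values near 0 at 24 h that did not pass (0.01 and 0.03, adjusted p = 0.972 and 0.832) and gave 0.58 and 0.42 at 72 h (adjusted p = 0.142 and 0.0253), short of a call. At 72 h A_24_P33895 was modulated at 6.0 μg/cm2 (0.60, SE 0.20, adjusted p = 0.0471), unlike the probe shown. At 3.0 μg/cm2 at 72 h A_24_P33895 and A_33_P3214105 gave 0.61 and 0.42 (adjusted p = 0.258 and 0.133), against 0.09 for the probe shown. For the difference between the times at 6.0 μg/cm2 both passed (−1.07 and −0.75), and A_33_P3214096 gave 0.39 (adjusted p = 0.089). At 6.0 μg/cm2 at 72 h, A_33_P3214105 and A_33_P3214096 had means of −3.27 and −3.35, above their 24 h controls (−3.52 and −4.15). A_24_P33895 lay below its 24 h controls (−5.24 against −4.7), as did the probe shown. The second probe of CHAC1, A_33_P3376965, rose by 1.57 and 1.74 at 24 h and by 0.58 and 0.67 at 72 h, the 0.58 being just short of 1.5-fold.

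Over the 38 arrays, with each value taken relative to the mean of its own controls, the correlations among the 10 genes ranged from −0.29 to 0.96 with a median of 0.66 over 45 pairs. The arrays share controls and fall into dose groups, so these values only describe likeness. ATF4 was most like TRIB3 (r = 0.96), CHAC1 like DDIT3 (0.92), and ATF3 like PPP1R15A (0.91), and ATF5 stood apart (−0.29 with DDIT4, −0.08 with SESN2). Among 13983 genes, those most like DDIT3 were C11orf96 (r = 0.978), DUSP5 (0.963), HRK (0.947), SOD2 (0.944) and IL6 (0.942). DUSP5 is a phosphatase of MAP kinases, HRK a cell death protein of the BCL2 family, SOD2 the mitochondrial superoxide dismutase and IL6 a cytokine. Those most like ATF4 were TRIB3 (0.955), CERS1 (0.928), MT1E (0.927), GAS5 (0.918) and MT1L (0.916), where MT1E and MT1L belong to the metallothionein family, whose similar members a probe may not tell apart.

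Other genes of the pathway were tallied in 7 lists, to be read against the percentages of all probes given above. Of 15 genes for the eIF2 kinases, eIF2, eIF2B and their regulators, 0 were modulated at either dose or time by limma (medians 0.00, 0.01, 0.02 and −0.01 at 3.0 and 6.0 μg/cm2 at 24 h and then 72 h), and 2, 7, 4 and 6 of them passed an unadjusted p below 0.05, as did 28.8%, 45.4%, 41.6% and 53.6% of all probes. The t-test was not run on the lists. Of 20 genes of amino acid synthesis and transport known as ATF4 targets, 0 were modulated at 3.0 μg/cm2 at 24 h or 72 h, 3 were higher at 6.0 μg/cm2 at 24 h, and 3 were higher and 1 lower at 72 h, with medians of 0.21, 0.20, 0.13 and 0.11. SLC38A2, an amino acid transporter, gave 0.73 at 24 h and −0.20 at 72 h at 6.0 μg/cm2, MTHFD2 of mitochondrial folate metabolism 0.59 and 0.74, and SLC7A5, a transporter of large neutral amino acids, 0.16 and 0.95. CTH, which makes cysteine, gave 0.22 and −1.37. Of this list 15% were modulated at the higher dose at 24 h and 20% at 72 h, against 9.29% and 17.1% of all probes.

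Of 10 genes for tRNA synthetases and tRNA export, 1 was higher at 6.0 μg/cm2 at each time, XPOT, which carries tRNA out of the nucleus (0.74 and 0.61), and the list medians were 0.27 and 0.21. Of all probes at 6.0 μg/cm2, 3.94% were higher and 5.35% lower at 24 h, and 6.51% and 10.6% at 72 h. Of 12 factors that partner ATF4 or CHOP or act beside them, 3 were higher and 2 lower at 6.0 μg/cm2 at 24 h, and 0 were higher and 4 lower at 72 h, with medians of 0.23 and −0.29. MAFF, a small MAF protein, rose by 0.82 and 1.50 at 3.0 and 6.0 μg/cm2 at 24 h, and CEBPB, a C/EBP factor, by 0.72 at 6.0 μg/cm2. FOS, an AP-1 factor like JUNB, was lower at both doses and times (−0.67 and −0.73 at 24 h, −0.91 and −1.35 at 72 h). JUNB gave 0.04 and −0.09 at 24 h and −0.61 and −0.75 at 72 h, a difference between the times of −0.65 (adjusted p = 0.0616) and −0.67 (adjusted p = 0.0108).

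Of 10 CHOP-linked and cell death genes, 0 were higher and 1 lower at 6.0 μg/cm2 at 24 h, and 1 was higher and 3 were lower at 72 h, with medians of 0.29 and 0.05. The shares of all probes were 3.94% higher and 5.35% lower at 24 h, and 6.51% and 10.6% at 72 h. BCL2L11, which encodes the death protein BIM, was lower at both times (−0.91 and −0.93), BBC3 (PUMA) and CASP4 were lower at 72 h (−0.71 and −0.76), and GADD45A was higher at 72 h (0.62). Of 18 further genes raised in the integrated stress response, 7 were higher at 6.0 μg/cm2 at 24 h, and 1 was higher and 4 were lower at 72 h, with medians of 0.47 and −0.06. TXNIP, which binds thioredoxin, rose by 3.01 at 24 h (adjusted p = 0.00346) and gave −0.23 at 72 h (adjusted p = 0.379). STC2, a secreted glycoprotein, rose at both times and doses (1.04 and 1.52 at 24 h, 0.86 and 1.40 at 72 h). NDRG1 rose by 0.75 at 24 h and fell by 1.33 at 72 h, and KLHL24 gave 0.46 at 24 h and fell by 1.64 at 72 h, with a difference between the times of −2.08 and −2.10 (adjusted p = 8.26e-06 and 5e-06).

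Of 18 ER chaperones and genes of the other arms of the unfolded protein response, 2 were higher and 1 lower at 6.0 μg/cm2 at 24 h, and 0 were higher and 2 lower at 72 h, with medians of 0.18 and −0.24. Among all probes 3.94% were higher and 5.35% lower at 24 h, and 6.51% and 10.6% at 72 h. EDEM1 and DNAJB9, which handle misfolded ER proteins, rose by 0.92 and 0.79 at 24 h and gave 0.00 and −0.73 at 72 h. XBP1, a factor of the IRE1 arm, was lower at both doses and times (−0.69, −0.72, −0.96 and −1.75). Between the times at 6.0 μg/cm2, 8 of these 18 genes had a lower difference at 72 h (median −0.46 against 0.05 over all probes, of which 9.2% were lower).

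**Figure D4:**
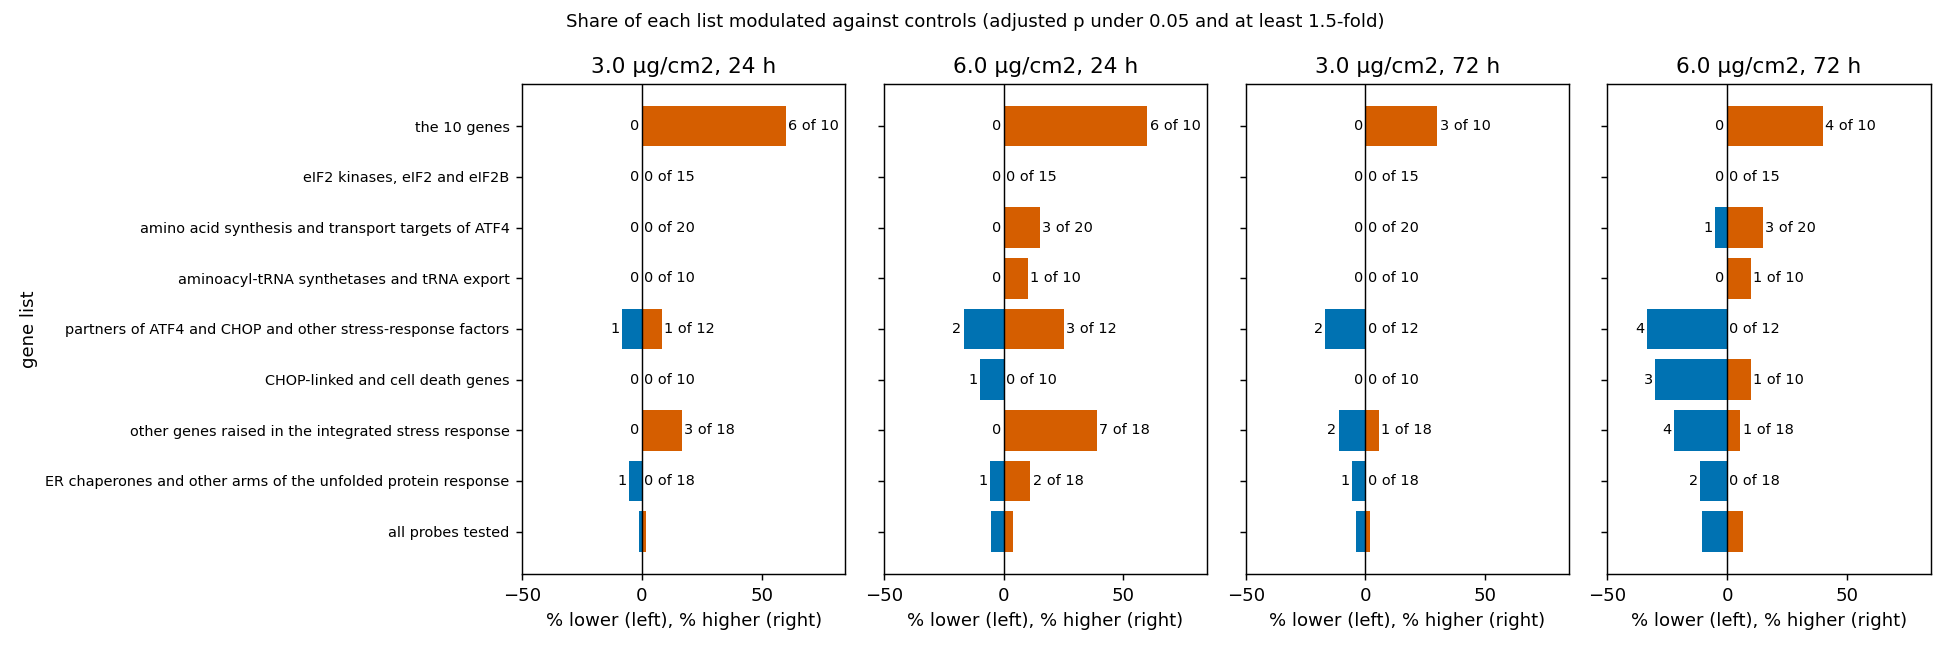
Share of each gene list that was modulated (horizontal axis, percent lower to the left and percent higher to the right) at 3.0 and 6.0 μg/cm2 after 24 h and 72 h, with counts of genes beside the bars and all tested probes in the lowest row. The 10 genes reach 6 of 10 higher at 24 h and 3 and 4 of 10 at 72 h. At 6.0 μg/cm2 after 72 h the lists of factors, other stress genes, CHOP-linked genes and ER chaperones hold more lower than higher genes. The same holds for all probes (10.6% lower and 6.51% higher).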

How the data were processed

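Gene expression was measured in 38 samples of A549 cells on Agilent single-color arrays. The authors deposited scanner files with spot intensity, background-subtracted by Agilent Feature Extraction (version 10.10.1.1 for 12 arrays, 11.0.1.1 for 26), and a table of intensity values equal to the median signal of each spot (largest difference 0). Per the file headers, marks of 0 or 1 name spots above background or of poor quality. Depth does not apply to arrays, and the number of arrays limits the precision.

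From the deposited intensity, each array's processed signal was taken to log2 and its 75th percentile subtracted, leaving out control spots and the 0.612% of spots marked as outliers. Spots of a probe were averaged over 43118 spots and 34127 probes, of which 25715 were named through their RefSeq accession and 8412 were not. A probe was tested if 1 or more of the groups compared had it well above background on all arrays. Differences were tested with limma 3.58.1 in R 4.3.3 (lmFit and eBayes, 2 groups per comparison, 4 groups for the difference between times), and modulated means an adjusted p below 0.05 with at least 1.5-fold. The steps were tested on simulated data: of 200 probes changed by 1.5 on the log2 scale, 93% were recovered for 3.0 μg/cm2 at 24 h, 94% for 6.0 μg/cm2 at 72 h, and 87% each for 1.5 μg/cm2 and for the difference between times at 6.0 μg/cm2. That change exceeds most of the called differences reported here, and the simulated arrays were independent. The shares therefore do not cover smaller changes or like pairs of arrays.

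The 10 genes, the lists and the tests were chosen with earlier results of these data known. All 10 genes are named, each by the probe with the highest mean over 38 arrays, and from each other list up to 4 genes with the largest change among those modulated at 6.0 μg/cm2, and the 5 genes most correlated with DDIT3 and with ATF4. Replicate numbers were checked for pairing by the correlation of deviations from group means. Every pair exceeded 0.1 only between 3.0 and 6.0 μg/cm2, at 24 h (0.362, 0.413 and 0.44) and 72 h (0.635, 0.207 and 0.304), and the numbers marked slides at 24 h. Alternatives were other background corrections, normalizations, filters, probes, blocks and tests, the deposited table, and leaving out each array. Averaging the like pairs of arrays was added after seeing the data. The other measurements of the study were not analysed here.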

Additional observations from a re-analysis of the deposited data

Results flagged for a closer look

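In the groups of 4 arrays, the highest or lowest array stood far from the others in 2 of 50 tested cases, where chance gives about 1 in 20. At 1.5 μg/cm2, replicate 4 of ATF4 read 6.22 against 6.07 for the nearest array, and replicate 1 of TRIB3 read 5.23 against 5.27, in a group whose arrays hardly differed.

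The response at 72 h differed from that at 24 h by the test of the difference itself. At 3.0 μg/cm2 the difference at 72 h minus that at 24 h was −0.83 for PPP1R15A, −0.68 for ATF3 (by the probe shown, not by its 3 others), −0.65 for CHAC1 and −0.63 for DDIT4 (limma adjusted p between 0.000644 and 0.0157). At 6.0 μg/cm2 it was −1.06 for ATF3, −0.96 for DDIT3, −0.93 for PPP1R15A, −0.85 for CHAC1, −0.76 for DDIT4, −0.75 for SESN2 and 0.87 for ATF5 (limma adjusted p between 2.43e-05 and 0.00328). Exposed cells at 72 h were scanned on a day of their own, so time of exposure and scan day cannot be told apart in these values.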

How the results depend on the processing

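By the probe shown for each gene, none of the 40 called differences changed direction under any alternative run. Of the 80 not called, 14 took the other sign in 41 of 1353 values, none of them more than 0.11 from 0 in the reported fit. Direction was not compared across probes in these runs. Probe A_33_P3214096 of ATF3 went the other way between the times at 3.0 and 6.0 μg/cm2 (0.57 and 0.39) and between the controls (0.38). The probe shown gave −0.68, −1.06 and −1.09 there. The remaining probes of ATF3 and CHAC1 kept the direction of the called differences. Of 637 values for the called results, 604 stayed called and 33 did not, and of those for the others, 31 became called. Without the fold threshold, 6 of the 10 genes passed at 3.0 μg/cm2 and 8 at 6.0 μg/cm2 at 72 h, as did 26.8% and 45.4% of all probes. Between these doses at 72 h, 3 of the 10 genes and 16.6% of all probes differed. With normexp background correction 0 differed between the doses at 24 h. At 72 h, 1 gene (PPP1R15A) differed between the doses with the slide as a random block (0.61, adjusted p = 0.0166) and 1 without replicate 1 at 6.0 μg/cm2 (0.68, adjusted p = 0.0171). At 1.0 μg/cm2, 1 gene (ATF3) was lower with replicates 1 and 2 against 3 and 4 as a block, which takes the arrays of a pair as independent. On the deposited median signals, SESN2 at 6.0 μg/cm2 at 24 h (0.57), DDIT3 at 72 h (0.38 and 0.57) and between the doses at 24 h (0.57), and CHAC1 and DDIT4 between the times at 3.0 μg/cm2 (−0.58 each) fell short of 1.5-fold, and DDIT3 between the times passed (−0.60). With quantile normalization ASNS between the controls fell short (0.55). Except where the fold threshold was removed or an array left out, the cause was not tested.

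Leaving out each array in turn gave 0 to 0 genes at 0.1, 1.0 and 1.5 μg/cm2, 4 to 6 at 3.0 and 6 to 7 at 6.0 μg/cm2 at 24 h, 2 to 3 and 4 to 4 at 72 h, 3 to 5 and 7 to 7 between the times, 2 to 3 and 0 to 1 between the doses at 24 h and 72 h, and 6 to 7 between the controls. The replicate block gave 0 at 0.1, 1.0 and 1.5 μg/cm2, 6 and 6 at 24 h, 3 and 4 at 72 h, 4 and 7 between the times, 3 and 0 between the doses and 7 between the controls, and changed no call. At 1.0 μg/cm2 arrays of the same number deviated in opposite directions (−0.352 to −0.555).

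With quantile normalization 6 of the 10 genes lay above 0 at 1.5 μg/cm2 and 2 between the times at 3.0 μg/cm2, against 4 and 4 in the reported fit. Other scaling moved the median of all probes by over 0.1 in 5 comparisons. For the difference between the times at 6.0 μg/cm2 it went from 0.05 to −0.17 with normexp, and the median of the 10 genes relative to it from −0.80 to −0.53. At 6.0 μg/cm2 at 24 h it went from −0.03 to 0.10 with normexp (0.81 to 0.62 relative to it), and on the deposited median signals from 0.03 to −0.10 and −0.11 at 72 h and to −0.11 between the times at 3.0 μg/cm2. The share of all calls that were higher went from 42.4% to 58.9% (normexp) at 6.0 μg/cm2 at 24 h, from 35.1% to 12.2% and 38.1% to 18.2% (deposited signals) at 72 h, from 38.8% to 17.5% and 46.3% to 27.7% between the times, from 42.4% to 85% (normexp) between the doses at 24 h, from 22.3% to 34% (quantile) at 72 h, and from 66.7% to 51% (quantile) between the controls. The slide as a random block could not be fitted at 72 h for 3.0 and 6.0 μg/cm2 against controls.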
